A study of Mus musculus with 6 samples.

Results

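The secreted Wnt ligands, their receptors and their antagonists were described in whole lung of mice that carry a truncating BMPR2 mutation in smooth muscle. Members were all probe sets with a single gene symbol for a Wnt ligand, a Frizzled receptor, Sfrp1 to Sfrp5, Dkk1 to Dkk4, an R-spondin, Lrp5, Lrp6, Wif1, Axin1 or Axin2. This gave 46 of the 18194 genes named on the array, read by 87 of its 45101 probe sets. A filter on dim values left 47 of these 87 probe sets, for 29 genes, among 27022 probe sets tested. Of the probe sets, 32 read Wnt ligands (19 genes), 6 R-spondins (4 genes), 26 Frizzled receptors (10 genes), 3 Lrp co-receptors (2 genes), 10 the Wnt-binding antagonists (5 genes), 6 the Dkk family (4 genes) and 4 Axin proteins (2 genes).

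RNA came from right lungs of 6 FVB/N mice, hybridised to 1 array each, in 3 groups of 2. Controls carried SM22-rtTA alone, a doxycycline-activated transactivator under the promoter of the smooth muscle gene Tagln (SM22). The other 4 mice were heterozygous for SM22-rtTA and for TetO7-BMPR2-R899X, which the transactivator switches on. Their right ventricular systolic pressure (RVSP) was near normal in 2 mice and high in the other 2, so these groups were formed by a measurement at death. Doxycycline was given to every mouse, controls included, beginning at an age of 4 weeks and lasting 9 weeks, up to death at 13 weeks. The description of the series gives all mice as female and age-matched, while the label of control 1 states no sex. The transgene was driven only where the SM22 promoter is active, whereas the RNA came from all lung cells, in which fewer cells of a type and less RNA per cell cannot be told apart.

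Wnt ligands are lipid-modified secreted proteins that bind a Frizzled receptor together with Lrp5 or Lrp6. Binding draws Axin away from the complex that destroys beta-catenin, and beta-catenin then switches on target genes with TCF and LEF factors. R-spondins raise the amount of receptor at the cell surface, Sfrp proteins and Wif1 bind the ligands, and Dkk1 blocks Lrp6. In lung, Wnt2 and Wnt2b are required for the organ to form, Wnt7b comes from airway epithelium, and Wnt5a acts largely through other Frizzled and Ror routes.

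Levels below are deposited intensities on a linear scale, given in the order of mice 1 and 2 of a group, which has no meaning beyond naming them. Differences are on the log2(intensity + 16) scale, where ± gives the standard error from limma, and each rests on n = 2 mice a group. Words such as brightest and dimmest only name the probe sets of a gene by their mean reading, and brightness was not taken as a measure of how much RNA one gene or probe set has against another. Array medians lay between 128 and 141. The 9 probe sets of Y-linked genes, which have no target in female mice, did not exceed 38.8 on any array, and 12 member probe sets, including the only ones of 3 genes (Dkk2, Rspo4 and Wnt3), also stayed at or below that reading. Markers fitted the label of lung: the summed intensity of 6 alveolar type 2 markers lay between 90993 and 117744, and that of 7 alveolar type 1 markers between 64691 and 83468. Control 1 and normal RVSP 1 stood apart by their 3'/5' ratio of the beta-actin control probe sets, a sign of RNA quality, at 1.89 and 1.64 against 1.27 to 1.45 on the other arrays.

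Across the module, Wnt signalling genes were balanced between higher and lower readings, and no member passed the adjusted threshold in any comparison. In R899X normal RVSP mice against controls 25 of 47 member probe sets were higher and 22 lower, with a median log2 difference of 0.0099 against -0.00086 over all probe sets tested. In R899X high RVSP mice against controls 24 were higher and 23 lower, with a median of 0.011 against -0.0042. High against normal RVSP gave 23 higher and 24 lower, with medians of -0.0017 and 0.0081, and all R899X against control gave 26 higher and 21 lower, with medians of 0.014 and -0.0020. The median absolute difference of members (0.19, 0.15, 0.16 and 0.15 in the same order) was near that of all probe sets (0.17, 0.18, 0.16 and 0.16). These comparisons share arrays.

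With limma and Benjamini-Hochberg adjustment, 0 of 47 members and 0% of all probe sets passed in each of the 4 comparisons. The smallest adjusted p of a member was 0.987 for normal RVSP against control, 0.801 for high RVSP against control, 0.9996 for high against normal RVSP and 0.832 for all R899X. At an unadjusted p under 0.05, normal RVSP against control had 2 members higher and 1 lower, where 1.71% and 2.64% of all probe sets tested did so. High RVSP against control also had 2 higher (background 3.64%) and 1 lower (2.01%). High against normal RVSP had 0 higher (1.67%) and 1 lower (0.951%), and all R899X against control had 2 higher (3.22%) and 1 lower (2.71%). Among 47 members, 2 are 4.26% and 1 is 2.13%, so these counts lie within about 1 probe set of the background. The 95% interval of the difference stayed within a 2-fold change in either direction for 38, 36, 36 and 37 of the 47 members in the same order. For the rest a 2-fold difference lay inside the interval.

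**Figure D1:**
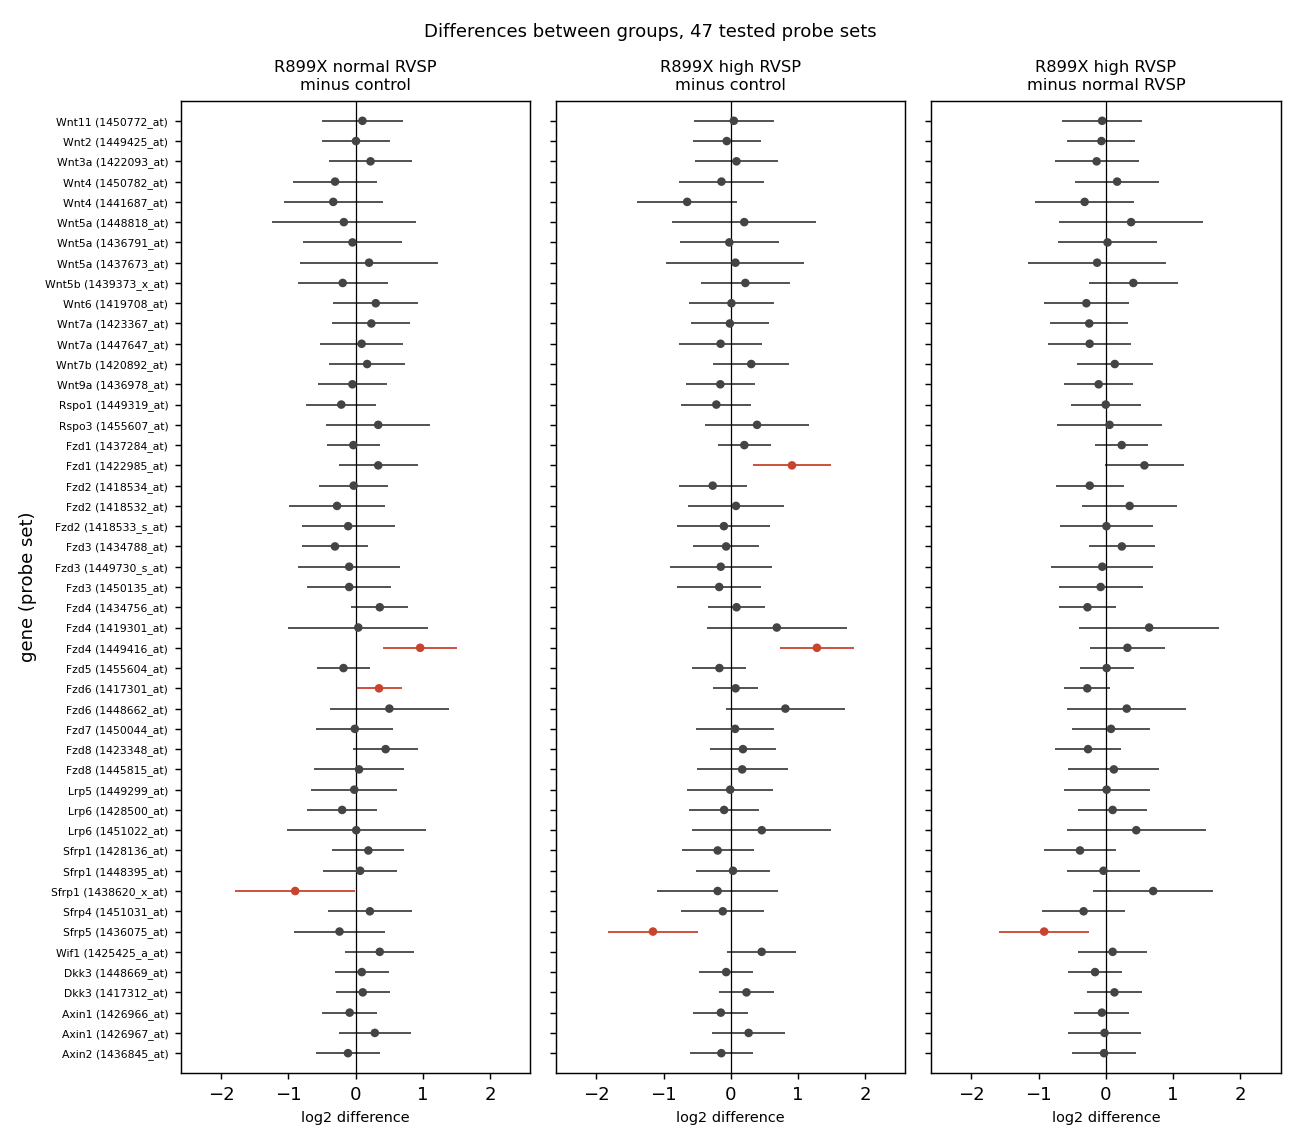
Log2 differences (points) with 95% intervals (lines) for the 47 tested probe sets in 3 comparisons, by gene and probe set; red marks an unadjusted p under 0.05. Most intervals include 0, and the exceptions are 1 probe set each of Fzd1, Fzd4, Fzd6, Sfrp1 and Sfrp5.

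Among the ligands, 14 probe sets of 10 genes were bright enough to test, and none reached an unadjusted p under 0.05. Wnt2, which lung mesenchyme secretes, read 679 and 689 in controls, 833 and 566 in normal RVSP and 603 and 714 in high RVSP mice. Wnt7b, the ligand of airway epithelium, read 118 and 151 in controls, 160 and 146 in normal RVSP and 173 and 166 in high RVSP mice. Both high RVSP arrays lay above both controls for Wnt7b, while for Wnt2 all groups overlapped. Wnt5a was read by 3 tested probe sets. The brightest gave 135 and 247 in controls, 91.0 and 276 in normal RVSP and 216 and 211 in high RVSP mice. Its spread lay within groups: control 1 and normal RVSP 1 were the lowest arrays, and the groups overlapped. The second gave 159 and 220, 139 and 233, and 153 and 222 in the same order, and the third 39.2 and 131, 85.0 and 89.9, and 83.0 and 74.2.

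The ligands Wnt3a, Wnt7a and Wnt11 did not separate the high RVSP mice from controls. Wnt3a, a classical activator of beta-catenin, read 233 and 179 in controls, 279 and 208 in normal RVSP and 185 and 256 in high RVSP mice. Wnt7a read 202 and 241, 244 and 283, and 182 and 263 in the same order, and a second probe set 130 and 99.6, 130 and 115, and 102 and 100.3. Wnt11, a ligand known for cell movement in the embryo, read 243 and 194, 286 and 191, and 226 and 223. In each of these the high RVSP mice overlapped the controls. On the brighter Wnt7a probe set both normal RVSP mice lay above both controls, an order the dimmer one did not share. Wnt4 was read by a probe set with 260 and 191, 149 and 210, and 182 and 223, and by a dimmer one with 98.8 and 133, 68.9 and 112, and 62.6 and 72.9. On the dimmer Wnt4 probe set both high RVSP mice lay below both controls, an order the brighter one did not share. The high RVSP mean of the dimmer one, 67.7, lay under the filter limit of about 74.9. That probe set was thus tested only through its control mean of 116 and its normal RVSP mean of 90.2. Wnt6 read 104 and 123, 155 and 131, and 133 and 97.1, so both normal RVSP mice lay above the controls and high RVSP mice overlapped them.

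Wnt5b, a close relative of Wnt5a, read 76.3 and 82.9 in controls, 61.4 and 74.5 in normal RVSP and 107 and 84.3 in high RVSP mice. The groups did not overlap, with high RVSP on top and normal RVSP lowest, although the Wnt5b probe set did not reach an unadjusted p under 0.05 in any comparison. Its normal RVSP mean of 68.0 lay under the filter limit of about 74.9. The Wnt5b probe set was thus tested only through its control mean of 79.6 and its high RVSP mean of 95.8. Wnt9a read 282 and 287, 319 and 236, and 253 and 255 in the same order, with both high RVSP mice below both controls and normal RVSP on either side. The remaining ligands, Wnt1, Wnt2b, Wnt3, Wnt8a, Wnt8b, Wnt9b, Wnt10a, Wnt10b and Wnt16, had no probe set past the filter. Their highest single readings ran from 22.7 for Wnt3 to 95.9 for Wnt9b.

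Of the R-spondins, Rspo1 and Rspo3 were bright enough to test, and Rspo2 and Rspo4 did not exceed 42.1 and 37.2. Rspo1 read 394 and 340 in controls, 356 and 276 in normal RVSP and 283 and 346 in high RVSP mice. Rspo3, which endothelial and stromal cells secrete, read 334 and 266 in controls, 368 and 395 in normal RVSP and 268 and 584 in high RVSP mice. The 584 of high RVSP 2 was the highest reading of Rspo3, while high RVSP 1 lay at the level of control 2. High RVSP 2 was also the array with the largest summed intensity of 6 mesothelial markers, 6484 against 4471 to 5458 on the others. That list was picked from several. On the same array 8 endothelial markers summed to 39820, the lowest of the 6 arrays. There 8 fibroblast markers summed to 42904, against 41984 to 48192 on the others. The part of other cells in the Rspo3 reading was not tested.

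**Figure D2:**
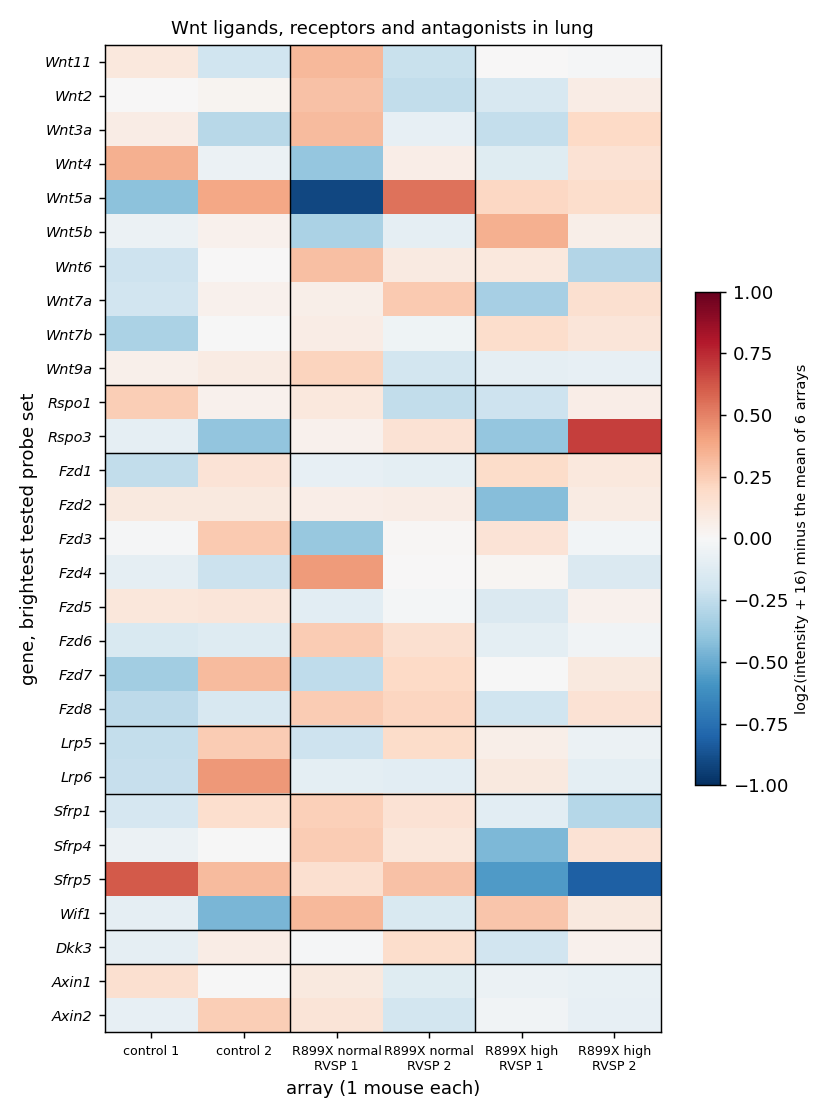
Log2(intensity + 16) minus the mean of the 6 arrays, for the brightest tested probe set of each of 29 genes (vertical axis, grouped by role) on each array (horizontal axis). Colour varies within groups as well as between them; Sfrp5 is low in both high RVSP mice, Rspo3 is high in 1 of them, and Wnt5a is low in control 1 and normal RVSP 1.

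The Frizzled receptors held the largest positive difference from control in each comparison, that of Fzd4, but on 1 of its 3 probe sets. Fzd4, a receptor of endothelial cells that binds Wnts and Norrin, was read by 3 tested probe sets. The dimmest, 1449416_at, read 115 and 88.3 in controls, 210 and 214 in normal RVSP and 288 and 251 in high RVSP mice. All 4 R899X mice lay above both controls, and both high RVSP mice above both normal RVSP mice. Its difference from control was 0.96 ± 0.24 for normal RVSP (limma, adjusted p = 0.987), 1.28 ± 0.24 for high RVSP (limma, adjusted p = 0.801) and 1.12 ± 0.21 for all R899X (limma, adjusted p = 0.832). Between high and normal RVSP the difference was 0.32 ± 0.24, with a 95% interval from -0.23 to 0.87.

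The brightest Fzd4 probe set, 1434756_at, read 2023 and 1855 in controls, 2887 and 2150 in normal RVSP and 2185 and 1939 in high RVSP mice. There the high RVSP mice overlapped the controls, at 0.09 ± 0.18, with a 95% interval from -0.34 to 0.51 that ends below the difference seen on the dimmest one. The third Fzd4 probe set, 1419301_at, read 896 and 1331 in controls, 638 and 1973 in normal RVSP and 1897 and 1646 in high RVSP mice, a high RVSP difference of 0.69 ± 0.45. Its lowest arrays were control 1 and normal RVSP 1, those with the highest beta-actin ratio. For the dimmest probe set this was not so: normal RVSP 1 lay beside normal RVSP 2, and control 2 was the lowest array.

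Leaving out control 1 and normal RVSP 1 together, the high RVSP difference of the dimmest Fzd4 probe set was 1.45 and passed in limma (adjusted p = 0.0183), as did that of all R899X at 1.29 (adjusted p = 0.0310). In that fit 313 and 228 of all 27022 probe sets passed, controls and normal RVSP were left with 1 array each, and the spread came from the high RVSP arrays alone, so the lone arrays were assumed to vary like those. Over all alternatives the adjusted p of the high RVSP difference ran from 0.0183 to 0.9999, and of all R899X from 0.0310 to 0.999. The summed intensity of 8 endothelial markers lay between 40147 and 45365 in controls, 41386 and 46419 in normal RVSP and 39820 and 43884 in high RVSP mice. Of these 8, Pecam1, an adhesion molecule of endothelial cells singled out after its values were seen, had the same order of groups as this Fzd4 probe set. Pecam1 read 3293 and 4531 in controls, 5169 and 5466 in normal RVSP and 6112 and 5590 in high RVSP mice, and all R899X differed from control by 0.53 ± 0.16 (limma, adjusted p = 0.832). For all R899X against control 3 of the 8 markers were higher and 5 lower, with a median of -0.03, and the part of endothelial cells in the Fzd4 reading was not tested.

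**Figure D3:**
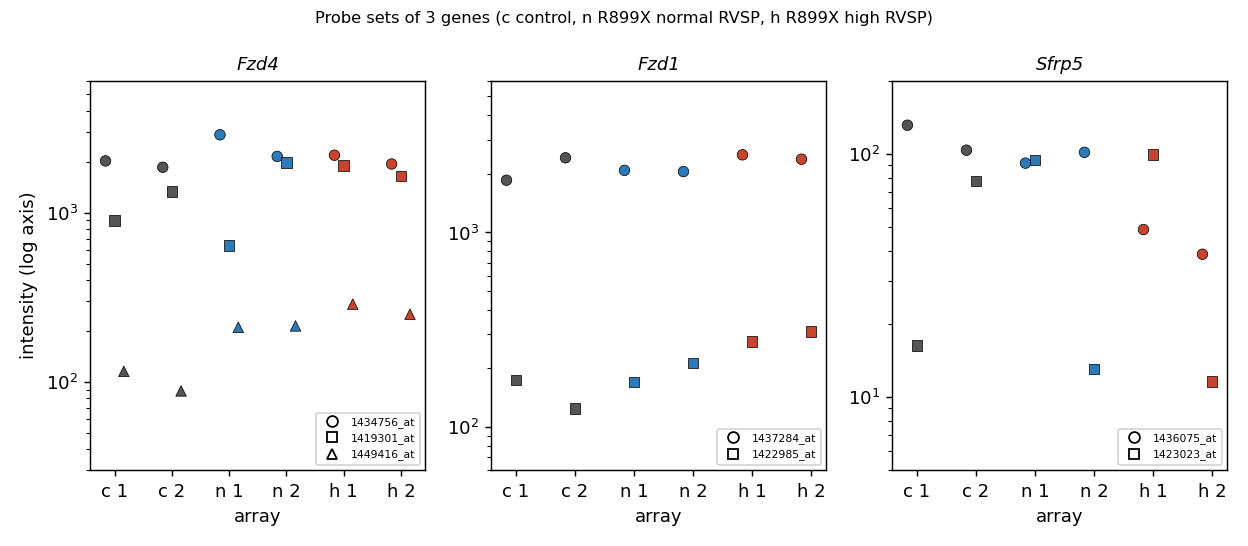
Intensity (vertical log axis) of every probe set (symbols) of Fzd4, Fzd1 and Sfrp5 on the 6 arrays (horizontal axis; grey control, blue R899X normal RVSP, red R899X high RVSP). The dimmest Fzd4 and Fzd1 probe sets, the third Fzd4 one and the brighter Sfrp5 probe set separate high RVSP mice from controls. The brightest Fzd4 and Fzd1 probe sets and the dimmer Sfrp5 one do not.

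Fzd1, a receptor that can signal through beta-catenin, followed the same form. Its dimmer probe set, 1422985_at, read 174 and 125 in controls, 170 and 214 in normal RVSP and 275 and 310 in high RVSP mice. Both high RVSP mice lay above all other arrays, by 0.91 ± 0.25 against control (limma, adjusted p = 0.857), by 0.57 ± 0.25 against normal RVSP, while normal RVSP overlapped control at 0.34 ± 0.25. All R899X against control gave 0.62 ± 0.22 (limma, adjusted p = 0.832), with the sides overlapping. The brighter probe set, 1437284_at, read 1855 and 2420, 2085 and 2056, and 2506 and 2379 in the same order, a high RVSP difference from control of 0.20 ± 0.17 with overlap at control 2.

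Fzd6, a receptor known from planar polarity of hair and skin, was highest in the normal RVSP mice on its brighter probe set. That probe set read 1420 and 1445 in controls, 1890 and 1771 in normal RVSP and 1476 and 1541 in high RVSP mice. Normal RVSP lay above control by 0.35 ± 0.15 (limma, adjusted p = 0.987), and high RVSP by 0.07 ± 0.15. The dimmer Fzd6 probe set read 104 and 279, 249 and 252, and 307 and 322, with the lowest value on control 1 and a high RVSP difference of 0.81 ± 0.38. Fzd8 read 260 and 280 in controls, 379 and 369 in normal RVSP and 271 and 350 in high RVSP mice, and both normal RVSP mice lay above all other arrays. A second Fzd8 probe set overlapped in that comparison, with 130 and 108, 96.4 and 156, and 132 and 138.

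The other tested Frizzled receptors overlapped between groups or moved little. Fzd2 read 427 and 427 in controls, 418 and 419 in normal RVSP and 293 and 422 in high RVSP mice on its brightest probe set, where high RVSP 1 alone was low. Its other probe sets read 312 and 511, 251 and 425, and 412 and 434, and 298 and 392, 251 and 397, and 257 and 392. Fzd3 read 536 and 652, 413 and 545, and 597 and 531. Fzd3's 2 other tested probe sets lay between 91.0 and 148 on all arrays. Fzd5 read 645 and 646 in controls, 551 and 585 in normal RVSP and 536 and 611 in high RVSP mice, so that both controls lay above all 4 R899X mice by a small margin. Fzd7 read 972 and 1548, 1039 and 1426, and 1240 and 1332, with control 1 and normal RVSP 1 lowest. Fzd9 and Fzd10 had no tested probe set and did not exceed 57.6 and 97.0.

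The co-receptors did not separate the groups. Lrp5 read 135 and 197 in controls, 139 and 187 in normal RVSP and 170 and 155 in high RVSP mice, and all R899X differed from control by -0.01 ± 0.24 (95% interval -0.57 to 0.54). Lrp6 read 1476 and 2353 in controls, 1629 and 1613 in normal RVSP and 1864 and 1625 in high RVSP mice, an all R899X difference of -0.15 ± 0.19 (95% interval -0.60 to 0.30). Control 1 and control 2 held the lowest and the highest Lrp6 reading. The dimmer Lrp6 probe set read 190 and 484, 210 and 447, and 430 and 423, so control 1 and normal RVSP 1 lay at less than 0.5 of every other array.

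**Figure D4:**
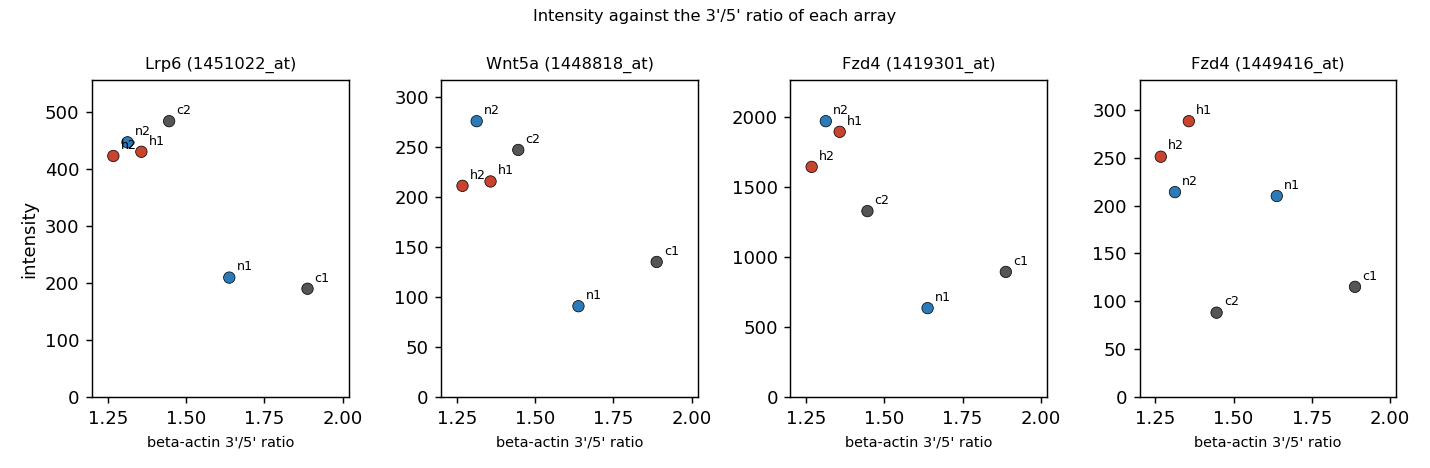
Intensity (vertical axis) of 4 member probe sets against the beta-actin 3'/5' ratio of each array (horizontal axis; c control in grey, n R899X normal RVSP in blue, h R899X high RVSP in red). The dimmer Lrp6, the brightest Wnt5a and the third Fzd4 probe set are lowest on the arrays with ratios of 1.64 and 1.89. The dimmest Fzd4 probe set is low in both controls. Other probe sets of Lrp6 and Wnt5a are not shown.

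Control 1 and normal RVSP 1 were the lowest arrays of all for 7 of 47 members (14.9%) and the highest for 4 (8.51%). Over all probe sets tested these shares were 12.0% and 12.8%. The 7 probe sets were of Fzd2, Fzd4, Fzd6, Fzd7, Lrp5, Lrp6 and Wnt5a, all receptors but Wnt5a, and the 4 were of Axin1, Rspo1, Wnt7a and Wnt11. The count was made after the readings had been seen, and the part of RNA quality in these readings was not tested.

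Among the antagonists, Sfrp5 had the most negative difference from control of the 47 tested member probe sets in the high RVSP mice. Sfrp5, a secreted decoy with a Frizzled-like domain that binds Wnt ligands, read 132 and 104 in controls, 91.8 and 102 in normal RVSP and 48.9 and 38.7 in high RVSP mice on probe set 1436075_at. Both high RVSP mice lay below every other mouse, and high RVSP 2 was at the highest reading of the Y-linked probe sets. The high RVSP mean of 43.8 lay under the filter limit of about 74.9. This probe set was thus tested only through its control mean of 118 and its normal RVSP mean of 96.8. The difference was -1.16 ± 0.29 against control (limma, adjusted p = 0.810), -0.92 ± 0.29 against normal RVSP (limma, adjusted p = 0.9996) and -0.70 ± 0.25 for all R899X against control (limma, adjusted p = 0.832). Normal RVSP differed from control by -0.24 ± 0.29. The second Sfrp5 probe set, which did not pass the filter, read 16.3 and 77.5, 94.8 and 13.1, and 99.8 and 11.6 in the same order and had no group pattern.

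The size of the Sfrp5 difference between high RVSP and control depends on what is added before the log, at -1.40 with 1 and -0.75 with 64. Its adjusted p over the alternatives ran from 0.305 to 0.9999, and the sign did not turn in any. Cardiac muscle markers moved with this comparison in their group means. The summed intensity of 8 markers was 24968 and 22211 in controls, 30316 and 21776 in normal RVSP and 20682 and 10182 in high RVSP. By group mean, 7 of 7 tested were lower in high RVSP than in either other group. Over all probe sets tested, 49.3% were higher in high RVSP than in control and 51.7% than in normal RVSP. These markers were lowest on high RVSP 2, while Actc1 on high RVSP 1, at 6615, lay above control 2, at 6380. Sfrp5 was low in both high RVSP mice. Summed adipocyte markers (5 genes) were 499 and 879, 821 and 1763, and 1266 and 857. The part of these tissues in the Sfrp5 reading was not tested.

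Wif1, a secreted protein that binds Wnts through its WIF domain, was higher in both high RVSP mice than in both controls. It read 825 and 636 in controls, 1106 and 789 in normal RVSP and 1072 and 939 in high RVSP mice, and all R899X against control gave 0.41 ± 0.19 (95% interval -0.03 to 0.85; adjusted p = 0.832). Sfrp1 was read by 3 tested probe sets. The brightest read 191 and 245, 258 and 241, and 201 and 175, and the next 181 and 185, 171 and 216, and 173 and 203. Neither separated R899X mice from controls. The dimmest, 1438620_x_at, read 117 and 94.5 in controls, 29.0 and 77.8 in normal RVSP and 97.6 and 82.8 in high RVSP mice. Its normal RVSP mean of 53.4 lay under the filter limit of about 74.9. This probe set was thus tested only through its control mean of 106 and its high RVSP mean of 90.2. Its normal RVSP difference of -0.90 ± 0.39 (limma, adjusted p = 0.987) rested on normal RVSP 1: without that array it was -0.37, and without both arrays of high beta-actin ratio -0.24. Sfrp4 read 169 and 177, 214 and 193, and 126 and 198 in the same order, and Sfrp2 did not pass the filter, with a highest reading of 97.6.

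In the Dkk family, Dkk3, which unlike Dkk1 is not known as a strong Lrp6 blocker, was read by 2 tested probe sets. It read 914 and 1026 in controls, 969 and 1103 in normal RVSP and 851 and 1002 in high RVSP mice, and on a second probe set 802 and 821, 861 and 890, and 855 and 1074. On the second, all 4 R899X mice lay above both controls, while on the first the groups overlapped. Dkk1, Dkk2 and Dkk4, the direct Lrp antagonists, did not exceed 70.7, 36.2 and 57.6 on any array.

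Axin2, the feedback gene that beta-catenin switches on and a usual readout of the pathway, did not differ beyond its spread. It read 505 and 639 in controls, 586 and 469 in normal RVSP and 523 and 506 in high RVSP mice. All R899X against control gave -0.13 ± 0.18, with a 95% interval from -0.53 to 0.28, so a 2-fold change in either direction lay outside the interval. Axin1, the scaffold of the destruction complex, read 715 and 640, 688 and 588, and 613 and 607 on its brighter probe set, with both high RVSP mice below the controls. On its dimmer probe set it read 211 and 220, 315 and 225, and 259 and 266, with all R899X mice above both controls. The 2 probe sets of Axin1 thus pointed in opposite directions.

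Axin1 was not alone in this. The same share over all genes of the array was not counted. The median absolute difference of members was 0.19 for normal RVSP against control, where the median standard error was 0.25. These medians were 0.15 and 0.25 for high RVSP against control and 0.16 and 0.25 for high against normal RVSP. For all R899X against control they were 0.15 and 0.22. Why probe sets of a gene differed in sign was not tested. Of the 13 genes with more than 1 tested probe set, all probe sets had the same sign in 8 for normal RVSP against control, 7 for high RVSP against control, 4 for high against normal RVSP and 8 for all R899X against control.

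The DNA just before the start of the members with an unadjusted p under 0.01 (Fzd1, Fzd4 and Sfrp5) is shown because TCF and LEF factors, through which Wnt signals act, bind a short core, CTTTGA or CTTTGT. The sequences are 250 bases upstream of the gene start from RefSeq on build GRCm38.p6, written 5′ to 3′ on the gene's strand, and capitals mark the core on either strand. Fzd1 lies at chr5:4758217-4758466 on the minus strand, Fzd4 at chr7:89404116-89404365 on the plus strand and Sfrp5 at chr19:42202253-42202502 on the minus strand.
Fzd1: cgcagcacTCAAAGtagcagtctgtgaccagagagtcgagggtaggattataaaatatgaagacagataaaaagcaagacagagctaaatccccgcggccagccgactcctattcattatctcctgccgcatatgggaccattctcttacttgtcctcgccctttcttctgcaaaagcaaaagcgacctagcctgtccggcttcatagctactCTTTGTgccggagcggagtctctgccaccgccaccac
Fzd4: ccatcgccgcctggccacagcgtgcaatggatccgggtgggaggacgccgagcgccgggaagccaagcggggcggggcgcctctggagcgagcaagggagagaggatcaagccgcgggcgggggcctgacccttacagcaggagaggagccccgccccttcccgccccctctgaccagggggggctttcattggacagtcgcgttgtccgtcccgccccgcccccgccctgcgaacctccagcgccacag
Sfrp5: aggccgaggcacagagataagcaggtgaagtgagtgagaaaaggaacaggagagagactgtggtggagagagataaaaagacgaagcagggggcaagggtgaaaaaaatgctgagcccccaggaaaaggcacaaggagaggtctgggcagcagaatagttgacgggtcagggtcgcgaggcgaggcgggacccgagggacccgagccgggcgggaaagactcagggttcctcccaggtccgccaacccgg
The core occurred at 2 places before Fzd1 and at 0 places before Fzd4 and Sfrp5. It was found in 27.6% of the 32851 gene starts of the table and in 7 of 32 starts (21.9%) listed for 29 member genes. The search was chosen after the values had been seen. A match is a run of letters and not a known binding site.

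Other genes of the pathway, taken from 5 lists, gave 0 members past the adjusted threshold in any of the 4 comparisons with limma. Of 27 tested intracellular transducers, 1 was higher (background 1.71% of all probe sets) and 1 lower (2.64%) at an unadjusted p under 0.05 for normal RVSP against control. For high RVSP against control 0 were higher (3.64%) and 1 lower (2.01%), for high against normal RVSP 1 was higher (1.67%) and 0 lower (0.951%), and for all R899X 1 was higher (3.22%) and 1 lower (2.71%). Lef1, the nuclear partner of beta-catenin, read 333 and 423 in controls, 528 and 743 in normal RVSP and 626 and 464 in high RVSP mice, so all 4 R899X mice lay above both controls; normal RVSP differed by 0.71 ± 0.25 (limma, adjusted p = 0.987). Tcf7l1, a relative that mainly represses, read 957 and 723, 708 and 640, and 576 and 608, a high RVSP difference of -0.48 ± 0.19 (limma, adjusted p = 0.857). Ctnnbip1, an inhibitor that binds beta-catenin, read 167 and 209, 126 and 101, and 192 and 233 in the same order. It was lowest in both normal RVSP mice, and high RVSP lay above normal RVSP by 0.82 ± 0.26 (limma, adjusted p = 0.9996).

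Of 17 tested target and feedback genes, 1 was lower at an unadjusted p under 0.05 in each comparison with controls, where 2.64% (normal RVSP), 2.01% (high RVSP) and 2.71% (all R899X) of all probe sets were, and 1 was higher for high against normal RVSP (1.67%). Nkd1, a feedback inhibitor that binds Dishevelled, read 3732 and 2817 in controls, 1715 and 2668 in normal RVSP and 2039 and 2351 in high RVSP mice. Both controls lay above all 4 R899X mice, and all R899X differed by -0.58 ± 0.21 (limma, adjusted p = 0.832). Myc, a growth regulator and textbook target, read 186 and 192, 138 and 182, and 231 and 254, with high RVSP above normal RVSP by 0.57 ± 0.24 (limma, adjusted p = 0.9996). The median difference of this list was 0.04 for high RVSP against control and 0.01 for normal RVSP against control.

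Of 15 tested secretion factors and co-receptors outside the module, 1 was higher for normal RVSP against control at an unadjusted p under 0.05, where 1.71% of all probe sets were, and 0 in the other comparisons. That was Gpc4, a heparan sulfate proteoglycan, at 535 and 597 in controls, 818 and 786 in normal RVSP and 556 and 787 in high RVSP mice. Gpc3 read 687 and 1509, 197 and 1216, and 1379 and 1588 in the same order, with normal RVSP 1 lowest. Its high RVSP readings lay above normal RVSP by 1.54 ± 0.71. Ror2, a receptor for Wnt5a, read 149 and 98.2, 124 and 160, and 207 and 178, with both high RVSP mice above all others and a difference from control of 0.60 ± 0.28. None of 19 tested planar polarity and non-canonical genes reached an unadjusted p under 0.05 in any of the 4 comparisons; Prickle1, a polarity protein, had the smallest at high against normal RVSP, -0.36 ± 0.16. Among 4 tested secreted modulators, Serpinf1, which can bind Lrp6, read 370 and 482 in controls, 658 and 582 in normal RVSP and 459 and 531 in high RVSP mice, a normal RVSP difference of 0.53 ± 0.21 (limma, adjusted p = 0.987), the 1 call among these 4 against the same 1.71%.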

How the data were processed

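The authors deposited 1 intensity per probe set on a linear scale for each of 6 arrays; how probe brightness was summarised is not stated in the labels. Per the labels' protocols, heparin preceded death and lungs were flushed before RNA was purified. Trimmed by 2% at each end, every array averaged 500.0. Here log2(intensity + 16) was computed, without further normalization (array medians spanned 0.126). Left out were 64 control probe sets and the 40% of probe sets with the lowest mean (under about 74.9). limma 3.58.1 in R 4.3.3 estimated a mean for each group (residual degrees of freedom 3), with an intensity trend; tests were two-sided and Benjamini-Hochberg adjusted at 0.05 across 27022 probe sets. The fit was tested on simulated data. The labels name no batch or pairing. An exact permutation of 2 against 2 arrays cannot go below p = 0.333.

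Members and lists were chosen with earlier results of these data known. Names come from the platform annotation; all 46 genes matched RefSeq by identifier, and 2 probe sets of the antisense gene Fzd10os were left out. By rule, values on every array are given for members with an unadjusted p under 0.05 and for each gene's brightest tested probe set, and statistics for the former and for Axin2, Wif1, Lrp5 and Lrp6; other lists are shown by up to 4 genes of smallest p. Further probe sets were added after their values had been seen. Alternatives varied the pseudocount, normalization, filter, trend, arrays and a beta-actin term.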

Additional observations from a re-analysis of the deposited data

Results flagged for a closer look

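Among the 4 R899X mice, 1 array stood far from the other 3 for 5 of 47 tested member probe sets (10.6%), by the share of the whole range that lies between it and its nearest neighbour on the log2(intensity + 16) scale. The limit is a published 95% critical value, meant to set about 1 in 20 groups apart by chance, and 6.93% of all 27022 probe sets tested passed it. For the brightest Fzd2 probe set high RVSP 1 was lowest at 293, with the others between 418 and 422, a share of 0.970. For a second Fzd2 probe set normal RVSP 1 was lowest at 251 against 412 to 434 (0.906). For the third Fzd4 probe set normal RVSP 1 was lowest at 638 against 1646 to 1973 (0.839). The brighter Lrp6 probe set was highest in high RVSP 1 at 1864 against 1613 to 1629 (0.936), and the dimmer one lowest in normal RVSP 1 at 210 against 423 to 447 (0.926). Normal RVSP 1 was the array set apart in 3 of the 5, which came from Fzd2, Fzd4 and Lrp6 alone. How often that array was set apart over all probe sets was not counted. It had the highest beta-actin 3'/5' ratio among the R899X mice, 1.64, and the part of RNA quality was not tested.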

How the results depend on the processing

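Of 15 alternatives, 0 members passed in 14 of them in each comparison they covered; without control 1 and normal RVSP 1 together, 1 member (Fzd4) passed for high RVSP against control and 1 for all R899X. The median difference of members moved by more than the spread between arrays of a group (SD 0.080) in 8 fits. Adding the beta-actin ratio of each array to the model, it was -0.15 for high RVSP against control and -0.074 for all R899X, and without both arrays of high ratio -0.094 for high RVSP. Leaving out 1 array at a time it ran from -0.061 to 0.13 for normal RVSP, from -0.094 to 0.10 for high RVSP and from -0.038 to 0.16 for all R899X against control; the cause was not tested. For all R899X against control, sign turned for Lrp5, 0.015 with quantile normalization and -0.26 to 0.23 with 1 array left out, and, with 1 array left out, for Lrp6 (-0.48 to 0.18) and Axin2 (-0.29 to 0.038); each was positive without control 2, and Lrp5 also without normal RVSP 1 or high RVSP 2. Differences of Fzd1, Fzd4, Fzd6, Sfrp1, Sfrp5 and Wif1 in the comparisons given with statistics kept their sign in every fit that tested them. Counts at an unadjusted limma p under 0.05 varied with the filter and with the arrays left out. For all R899X against control they were 0 with the lower 60% left out and 7 with no filter. Without the filter all 87 member probe sets were tested rather than 47. Shares over all probe sets were not counted in these fits, so these counts cannot be set against a background and are no result about the members. With the lower 60% left out, the dim Fzd1, Fzd4 and Sfrp5 probe sets were not tested, and 0 or 1 member reached that level. The labels give each mouse its own number and none is shared across groups, so no paired analysis was possible. The 95% interval of a member had a median half-width of 0.586 on the log2 scale.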

Other observations

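Some members too dim to test still differed between arrays. A dim Sfrp1 probe set, 1416594_at, read 13.4 and 13.6 in controls, 15.3 and 35.5 in normal RVSP and 80.6 and 113 in high RVSP mice, so only the high RVSP mice exceeded the highest reading of the Y-linked probe sets (38.8). The tested Sfrp1 probe sets did not share that order. A dim Fzd7 probe set, 1450043_at, read 24.0 and 28.3, 30.9 and 21.7, and 54.8 and 73.4 in the same order. These were picked after their values had been seen and were not tested.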
